A study of Mus musculus with 16 samples.

Results

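The RNA of 8 keratin genes was followed in 16 transplanted mouse mammary tumours: the luminal keratins Krt8, Krt18, Krt7 and Krt19, and the basal keratins Krt5, Krt14, Krt15 and Krt17. They were chosen by symbol from a table of 55146 genes, and all 8 had a row. All 8 passed the filter for testing, a level of 1 FPKM or more in 4 or more libraries, which 15105 genes met. FPKM counts fragments per kilobase of transcript, scaled to the mapped total of the library, so levels of different genes can be compared per length. Tumours arising in MMTV-PyMT mice, in which the promoter of mouse mammary tumour virus drives the polyoma middle T antigen in mammary epithelium, were taken from donors aged 12 weeks. They were placed in mammary fat pad number 4 of FVB hosts, which keep their own stroma and immune system. Every tumour thus carried the transgene, and the labels set the groups of 4 tumours each apart by what the hosts received over 28 days. One group had vehicle. Another had anti-PD-L1, an antibody that blocks the checkpoint ligand PD-L1, dosed at 5 mg/kg on 2 occasions per week. The third had the Smoothened inhibitor sonidegib, dosed daily at 20 mg/kg, and the last had both agents on these schedules (the combination). The study asked how the agents act on tumour growth and immune infiltration in a model of triple-negative breast cancer. The labels name no donor, litter, batch or day, so p-values measure only the spread between these tumours.

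Keratins are the intermediate filament proteins of epithelial cells. A filament is built from pairs of an acidic type I and a basic type II keratin, and a keratin without a partner is degraded. In the mammary gland the cells lining the lumen are known for Krt8 and Krt18, with Krt7 and Krt19, and the outer myoepithelial and basal cells for Krt5 and Krt14, with Krt15 and Krt17. Krt5, Krt7 and Krt8 are type II, and Krt14, Krt15, Krt17, Krt18 and Krt19 are type I. Mouse type II genes lie together on chromosome 15 and most type I genes on chromosome 11, and Krt18 is the type I gene that sits in the type II cluster beside its partner Krt8.

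On GRCm38, Krt8 (ENSMUSG00000049382.10) spans chr15:101996698-102004482 on the minus strand and Krt18 (ENSMUSG00000023043.7) chr15:102028180-102032027 on the plus strand. They lie head to head with 23.7 kb between them. Krt5 (ENSMUSG00000061527.7) lies on the minus strand at chr15:101707070-101712898, and Krt7 (ENSMUSG00000023039.17) on the plus strand at chr15:101411043-101430313. The other 4 genes share 129 kb of the minus strand of chromosome 11. These are Krt15 (ENSMUSG00000054146.8, chr11:100131758-100135928), Krt19 (ENSMUSG00000020911.14, chr11:100140810-100148665), Krt14 (ENSMUSG00000045545.8, chr11:100203162-100207548) and Krt17 (ENSMUSG00000035557.9, chr11:100256217-100261029). All 8 are annotated as protein-coding.

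The starts of Krt8, Krt18 and Krt5 are shown because only these 3 of the 8 had a sequence that covered the stretch printed. Krt8 and Krt18 moved together over the tumours, as described further on, and Krt5 is a basal type II gene that did not follow them. Each stretch runs from 100 bases before the most upstream start given by RefSeq or GENCODE, in lower case, to the first 30 bases from that start, in capitals. For Krt8 and Krt18 this is the GENCODE start, 140 and 36 bases upstream of the RefSeq start. For Krt5 it is the RefSeq start, 7 bases upstream of the GENCODE start. The sequences are from the RefSeq promoter table (GRCm38.p6), in which 5 of the 8 genes had an entry. For Krt7 and Krt14 the RefSeq and GENCODE starts lay 1360 and 1518 bases apart, and their entries did not cover the stretch. The regions are chr15:102004453-102004582 (minus strand) for Krt8, chr15:102028080-102028209 (plus strand) for Krt18 and chr15:101712876-101713005 (minus strand) for Krt5.
Krt8 promoter: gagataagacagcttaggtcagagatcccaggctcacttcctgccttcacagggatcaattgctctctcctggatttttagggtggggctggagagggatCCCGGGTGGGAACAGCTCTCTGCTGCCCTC
Krt18 promoter: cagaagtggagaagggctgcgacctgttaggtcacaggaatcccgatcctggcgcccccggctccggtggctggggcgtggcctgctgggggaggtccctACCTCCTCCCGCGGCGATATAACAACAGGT
Krt5 promoter: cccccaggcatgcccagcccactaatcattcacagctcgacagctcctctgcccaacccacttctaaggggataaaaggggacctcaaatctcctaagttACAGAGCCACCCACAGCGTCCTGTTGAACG
Both strands were searched for TATAAA (the TATA box), GGGCGG (the Sp1 GC box), TGANTCA (the AP-1 site) and GACCACCCA (the Gli site). None of these letter strings was present in any of the 3 stretches of 130 bases. Only exact matches were searched for, so variants of these strings would be missed. The RefSeq starts of Krt8 and Krt18 lie outside their stretches, so the search does not show that these promoters lack such elements. Over 32851 promoters of that length, 6.38% held the first string, 27.5% the second, 3.49% the third and 0.0822% the Gli string.

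Libraries differed in ways that touch the keratins. Vehicle replicate 3 was low over all genes, with a median log2 deviation from the gene medians of -0.764, against -0.129 to 0.149 in the other 15 libraries. It had 11361 genes at 1 FPKM or more, against 13107 to 14784. The slope of the log2 values on GC content was -0.387 to -0.281 per 10% GC in combination replicates 2 to 4 and 0.213 in combination replicate 1. It was 0.332 to 0.455 in vehicle replicates 1 to 3 and -0.051 in vehicle replicate 4. The keratin transcripts are 52.3% to 58.9% GC. Approximate depth was 33.6 to 56.8 M (mega) fragments per library, and at that depth 1 fragment on Krt15 is worth about 0.0117 to 0.0199 FPKM. The epithelial adhesion gene Epcam was at 83.8 to 423 FPKM in all 16 libraries. The luminal regulators Foxa1 and Pgr were below 1 FPKM in all of them, and 14 of 16 genes of cornified skin and hair follicle, among them Krt1, Krt10 and Lor, were too.

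The luminal pair Krt8 and Krt18 made up most of the summed FPKM of the 8 keratins in these tumours. Krt18 averaged 412 FPKM over the 16 libraries and Krt8 averaged 368, ranks 211 and 229 among the 15105 tested genes. Krt19, a small type I keratin of simple epithelia, averaged 44.8 FPKM, and Krt7, a type II keratin of ducts and glands, 34.9. Among the basal keratins Krt14, the type I keratin of the basal layer, was the most abundant at 13.8 FPKM. Krt17, a type I keratin also known from stressed and wounded epithelia, averaged 6.07 FPKM and Krt5, the type II partner of Krt14, 5.14. Krt15, a type I keratin of basal and stem cell compartments of skin, averaged 1.38 FPKM with a median of 0.466, and reached 1 FPKM in 4 of 16 libraries. Krt8 and Krt18 together held 85.2% to 93.7% of the summed FPKM of the 8 keratins in 15 libraries, and 70.6% in anti-PD-L1 replicate 4.

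The keratins varied widely between tumours. The standard deviation of log2(FPKM + 1) over the 16 libraries was 0.62 for Krt18, the least variable of the 8, and 1.09 for Krt5, the most variable. The median over all tested genes was 0.42. The highest level was 4.06 times the lowest for Krt8, below the median of 4.34 times over tested genes, 4.81 times for Krt18 and 17.1 times for Krt19. For Krt5 it was 32.4 times the lowest, and for Krt15 it was 134 times. In the plot of FPKM by tumour, anti-PD-L1 replicate 4 alone holds the high end for Krt5 and Krt15.

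**Figure D1:**
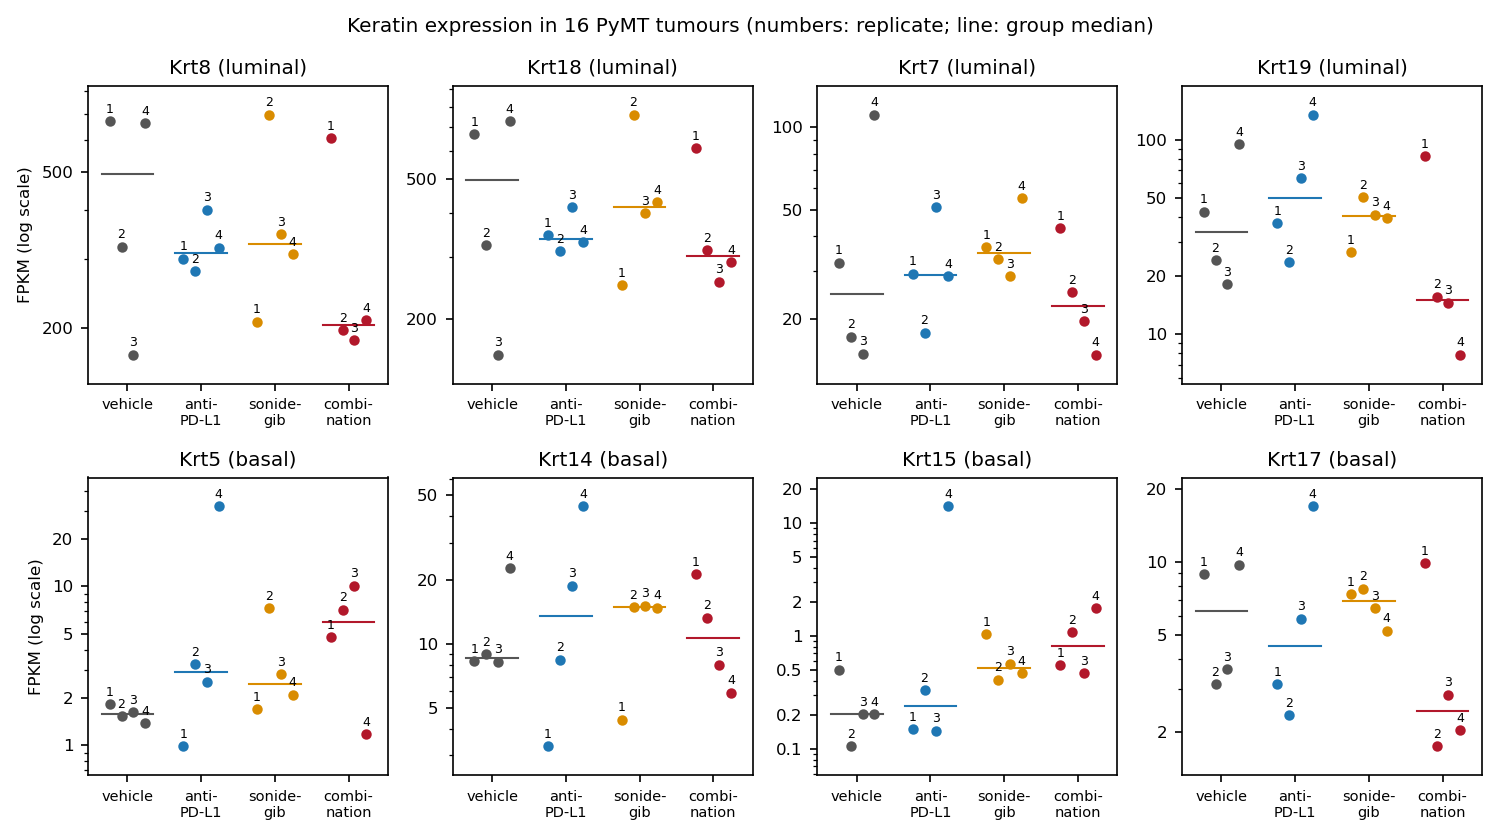
FPKM of the 8 keratins in each tumour on log axes, 4 tumours per group, with replicate numbers beside the points and a line at the group median. Combination replicates 2 to 4 lie at the low end for Krt19 (7.87 to 15.6 FPKM), and anti-PD-L1 replicate 4 is the highest library for Krt5, Krt14, Krt15, Krt17 and Krt19.

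No keratin passed the test in any comparison. Limma with Benjamini-Hochberg adjustment over all tested genes called 0 of the 8 across the 4 groups, where it called 0.0199% of all genes. It called 0 of 8 between the combination and vehicle, where 11.3% of all genes were called, 10.3% higher and 0.953% lower. For anti-PD-L1 against vehicle it was 0 of 8 beside 0% of all genes, and for sonidegib against vehicle 0 of 8 beside 0%. Between the combination and anti-PD-L1, 0 of 8 were called beside 0.00662% of all genes, and between the combination and sonidegib 0 of 8 beside 0%. Sonidegib against anti-PD-L1 gave 0 of 8 beside 0%, and the interaction of both agents 0 of 8 beside 0.00662%. At an unadjusted p under 0.05 limma also gave 0 of 8 in each of these 8 comparisons. The share of all genes at that level was 23.7% across groups, 24.6% for anti-PD-L1 and 27.3% for sonidegib against vehicle, 33.6% for the combination against vehicle and 9.88% for the interaction. It was 5.78% for the combination against anti-PD-L1, 4.28% against sonidegib and 2.09% for sonidegib against anti-PD-L1. The groups overlapped for all 8 keratins in each of the 6 pairwise comparisons, so 0 of 8 were free of overlap beside 4.39% of all genes for the combination against vehicle. For anti-PD-L1 and sonidegib against vehicle these shares of all genes were 3.87% and 6.27%. They were 3.83% and 2.92% for the combination against anti-PD-L1 and against sonidegib, and 2.75% between the single agents.

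Krt8, the luminal type II keratin, was at 670.1, 322, 172 and 663 FPKM in vehicle replicates 1 to 4 and at 607, 198, 187 and 209.6 in the combination replicates 1 to 4. Anti-PD-L1 tumours held 301, 279.9, 400.2 and 321 FPKM of Krt8, and sonidegib tumours 208, 697, 347 and 309. Combination replicates 2 to 4 were below all anti-PD-L1 tumours, while combination replicate 1 was above all of them, and vehicle spanned both levels. Mean Krt8 was 457 ± 250 FPKM (SD, n = 4) in vehicle, 390 ± 213 in sonidegib, 325 ± 52.6 in anti-PD-L1 and 300.4 ± 205 in combination tumours. Against vehicle the combination differed by -0.59 on the log2(FPKM + 1) scale (SE 0.48, 95% interval -1.59 to 0.41, limma adjusted p = 0.395). Neighbouring groups in this order did not differ beyond their spread.

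Krt18, the type I partner of Krt8, was at 671, 324, 158 and 729 FPKM with vehicle and 610.0, 314, 255 and 289.6 with the combination. With anti-PD-L1 it was at 346, 312, 416 and 329.9 FPKM, and with sonidegib at 249.5, 760.4, 399.9 and 429. The lowest tumour was vehicle replicate 3, the library low over all genes, and the highest was sonidegib replicate 2. Means were 470.5 ± 275 FPKM (SD, n = 4) with vehicle, 459.8 ± 215 with sonidegib, 367 ± 164 with the combination and 351 ± 45.4 with anti-PD-L1. The difference of the combination from vehicle was -0.21 (SE 0.45, 95% interval -1.16 to 0.75, limma adjusted p = 0.779). Removing the GC trend turned it to 0.16, and it was 0.04 and 0.08 without vehicle replicates 1 and 4.

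Krt8 and Krt18 went together from tumour to tumour. Over the 16 tumours, with each library's median deviation removed, Pearson's r of their log2 values was 0.952 (permutation p = 1e-05, the lowest possible with 100000 permutations, adjusted p = 0.00028 over 28 pairs). Spearman's rho was 0.924 (permutation p = 2e-05, adjusted p = 0.00056). Without the 2 tumours farthest from the median of Krt8, r was 0.926, and over the deviations from the group means it was 0.969. The ratio of Krt8 to Krt18 was 0.999, 0.995, 1.08 and 0.909 in the vehicle tumours and 0.995, 0.632, 0.732 and 0.724 in the combination tumours. It was 0.869 to 0.972 with anti-PD-L1 and 0.719 to 0.916 with sonidegib. Combination replicates 2 to 4 and sonidegib replicate 4, at 0.719, were the 4 lowest tumours, and combination replicate 1 lay at the level of vehicle. Mean ratios were 0.997 ± 0.072 (SD, n = 4) in vehicle, 0.926 ± 0.05 in anti-PD-L1, 0.834 ± 0.084 in sonidegib and 0.771 ± 0.156 in combination tumours. No test was made of this ratio. The same 3 combination libraries have the negative GC slopes given above, and the transcripts of Krt8 and Krt18 are 57.1% and 56.4% GC. Only the library median was removed before the correlation, so the GC slopes remain in it. The part of GC in the ratio and in the correlation was not tested. The processed pseudogene Krt8-ps on chromosome 7, whose reads may be shared with Krt8, was at 2.18% to 3.61% of Krt8.

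**Figure D2:**
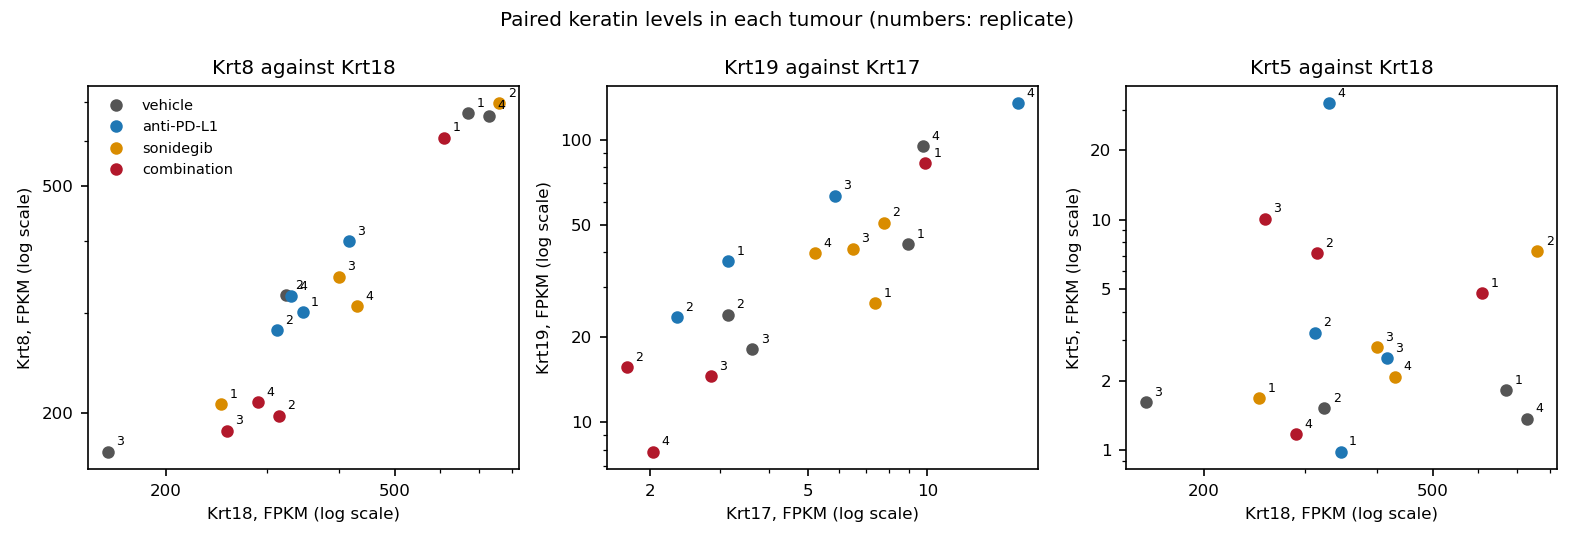
Levels of pairs of keratins in each tumour on log axes in FPKM, with colours for the 4 groups and replicate numbers beside the points. Krt8 follows Krt18 (r = 0.952), Krt19 follows Krt17 (r = 0.870), and Krt5 shows no such relation to Krt18 (r = -0.06).

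Krt19 had the lowest levels in 3 of the 4 combination tumours. It was at 82.6, 15.6, 14.6 and 7.87 FPKM in combination replicates 1 to 4 and at 42.8, 24.0, 18.2 and 94.8 in vehicle replicates 1 to 4. Anti-PD-L1 tumours held 37.2, 23.5, 63.4 and 134 FPKM, and sonidegib tumours 26.4, 50.8, 41.2 and 39.6. Combination replicates 2 to 4 lay below each of the 12 tumours of the other groups, and combination replicate 1 was above 10 of those 12.
The means were 64.6 ± 49.3 FPKM (SD, n = 4) with anti-PD-L1, 45.0 ± 34.9 with vehicle, 39.5 ± 10.02 with sonidegib and 30.2 ± 35.1 with the combination. The combination differed from vehicle by -0.85 (SE 0.66, 95% interval -2.25 to 0.55, limma adjusted p = 0.381), and from sonidegib by -0.92 (SE 0.66, adjusted p = 0.959). From anti-PD-L1 it differed by -1.35 (SE 0.66, 95% interval -2.75 to 0.05, limma adjusted p = 0.837). The comparisons with the combination share its 4 libraries. The interaction, the effect of both agents beyond the sum of the single ones, was -1.42 (SE 0.93, adjusted p = 0.509 by limma).

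The Krt19 value of the combination rests on which tumours are counted. Without combination replicate 1 its difference from vehicle was -1.51 (SE 0.55, limma adjusted p = 0.0483), past the threshold, where 28.2% of 15054 genes were called, 4.54% lower. This was the one keratin call in any setting tried. With the GC trend removed the difference over all 16 libraries was -0.43 (adjusted p = 0.673 by limma), and it was -1.17 (adjusted p = 0.279) without vehicle replicate 3. It was -0.40 (limma adjusted p = 0.68) without vehicle replicate 4 and -0.43 (limma adjusted p = 0.707) without combination replicate 4, so leaving out single libraries gave -1.51 to -0.40. Krt19 was 2.72% to 5.72% of Krt18 in combination replicates 2 to 4 but 13.54% in replicate 1. In vehicle it was 6.38% to 13%, in sonidegib 6.68% to 10.6%, and in anti-PD-L1 replicates 1 to 3 7.56% to 15.2%, while replicate 4 of that group was at 40.7%.

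Krt7, the last luminal member, was at 32.1, 17.3, 15 and 111 FPKM with vehicle and 43.0, 25.1, 19.6 and 14.8 with the combination. Anti-PD-L1 tumours had 29.3, 17.9, 51.2 and 28.7 FPKM and sonidegib tumours 36.5, 33.0, 28.7 and 55.2. Vehicle replicate 4 was the highest of the 16, and the other vehicle tumours lay within the range of the combination. The combination differed from vehicle by -0.38 (SE 0.49, 95% interval -1.42 to 0.66, limma adjusted p = 0.616), and by 0.22 without vehicle replicate 4. Between sonidegib and anti-PD-L1 the difference was 0.32 (SE 0.49, adjusted p = 1 by limma), the highest of the 8 in that comparison.

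Over the 4 luminal keratins the median difference between the combination and vehicle was -0.49, and -0.74 relative to the median of all tested genes, which was 0.26. All 4 were below 0, and Krt7, Krt8 and Krt19 stayed so with quantile normalization, median-of-ratios scaling and the GC trend removed, while Krt18 turned positive with the last. With the GC trend removed Krt8 was at -0.20, Krt7 at -0.21 and Krt19 at -0.43. Quantile normalization moved the median of all genes to -0.03 and median-of-ratios scaling to 0.07. Leaving out vehicle replicate 3 moved it to 0.07. Of the wider luminal epithelium list, with 17 of 20 genes tested, 0 were called higher and 0 lower by limma, with a median of 0.22. The 2 with the lowest p were Ehf, an epithelial transcription factor, at 1.29 (SE 0.45, adjusted p = 0.0614), and the milk protein gene Wap, at 1.57 (SE 0.55, adjusted p = 0.0634).

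Krt5, the basal type II keratin, was low and even in vehicle tumours, at 1.82, 1.52, 1.62 and 1.37 FPKM. It was at 4.81, 7.16, 10.1 and 1.18 FPKM with the combination, at 1.69, 7.30, 2.81 and 2.09 with sonidegib and at 0.987, 3.24, 2.52 and 32.0 with anti-PD-L1. In each treated group 3 of 4 tumours were above all vehicle tumours, and 1 tumour each of the combination and anti-PD-L1 groups was below all of them. The means were 1.58 ± 0.187 FPKM (SD, n = 4) with vehicle, 3.47 ± 2.59 with sonidegib, 5.82 ± 3.78 with the combination and 9.68 ± 14.9 with anti-PD-L1. The difference from vehicle was 1.18 for the combination (SE 0.72, 95% interval -0.38 to 2.73, limma adjusted p = 0.269), the highest of the 8. It was 1.12 for anti-PD-L1 (SE 0.72, limma adjusted p = 0.339) and 0.64 for sonidegib (SE 0.72, limma adjusted p = 0.56), and these comparisons share the vehicle tumours. Without anti-PD-L1 replicate 4 the anti-PD-L1 difference was 0.26.

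Krt14, which pairs with Krt5, was at 8.30, 8.94, 8.24 and 22.8 FPKM with vehicle and 21.3, 13.3, 7.98 and 5.90 with the combination. With anti-PD-L1 it was at 3.30, 8.44, 18.8 and 44.4 FPKM and with sonidegib at 4.41, 14.9, 15.1 and 14.8. All 4 groups overlapped. The means of 12.1 ± 7.14 FPKM (SD, n = 4) with vehicle and 12.1 ± 6.86 with the combination differed by -0.01 (SE 0.62, 95% interval -1.33 to 1.31, limma adjusted p = 0.992). This difference was 0.39 with the GC trend removed. The ratio of Krt5 to Krt14 was 0.0603 to 0.219 with vehicle and 0.199 to 1.27 with the combination, where replicate 3 was the one tumour of the 16 with more Krt5 than Krt14.

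Krt15 was below 1 FPKM in 12 of 16 tumours. It was at 0.504, 0.105, 0.203 and 0.202 FPKM with vehicle, at 0.554, 1.09, 0.466 and 1.77 with the combination and at 1.04, 0.411, 0.569 and 0.466 with sonidegib. Of the anti-PD-L1 tumours replicate 4 held 14.1 FPKM and the others 0.150, 0.331 and 0.145. Of the combination tumours 3 were above all vehicle tumours, and the fourth, at 0.466, lay between the 2 highest of them. The combination differed from vehicle by 0.61 (SE 0.63, 95% interval -0.75 to 1.97, limma adjusted p = 0.523), a scale on which changes below 1 FPKM are compressed. Krt15 met the filter through 4 libraries only, 2 combination, 1 sonidegib and 1 anti-PD-L1 tumour. In a fit that left out any of these 4 it was not tested. Between sonidegib and anti-PD-L1 its difference was -0.50 (SE 0.63, adjusted p = 1 by limma), the lowest of the 8.

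Krt17 was at 8.93, 3.15, 3.62 and 9.76 FPKM with vehicle and 9.90, 1.75, 2.85 and 2.03 with the combination. It was at 3.14, 2.34, 5.84 and 17.0 FPKM with anti-PD-L1 and at 7.39, 7.76, 6.48 and 5.22 with sonidegib. Combination replicates 2 to 4 were below all vehicle and all sonidegib tumours, and replicate 1 was above all tumours of both groups. The combination differed from vehicle by -0.64 (SE 0.50, 95% interval -1.70 to 0.43, limma adjusted p = 0.387), with means of 4.13 ± 3.87 and 6.37 ± 3.46 FPKM (SD, n = 4). Over the 4 basal keratins the median difference between the combination and vehicle was 0.30, beside 0.26 for all tested genes. Krt5 and Krt15 lay above 0 and Krt17 below 0 under quantile normalization, median-of-ratios scaling and with the GC trend removed as well, and Krt14 turned positive with the last.

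**Figure D3:**
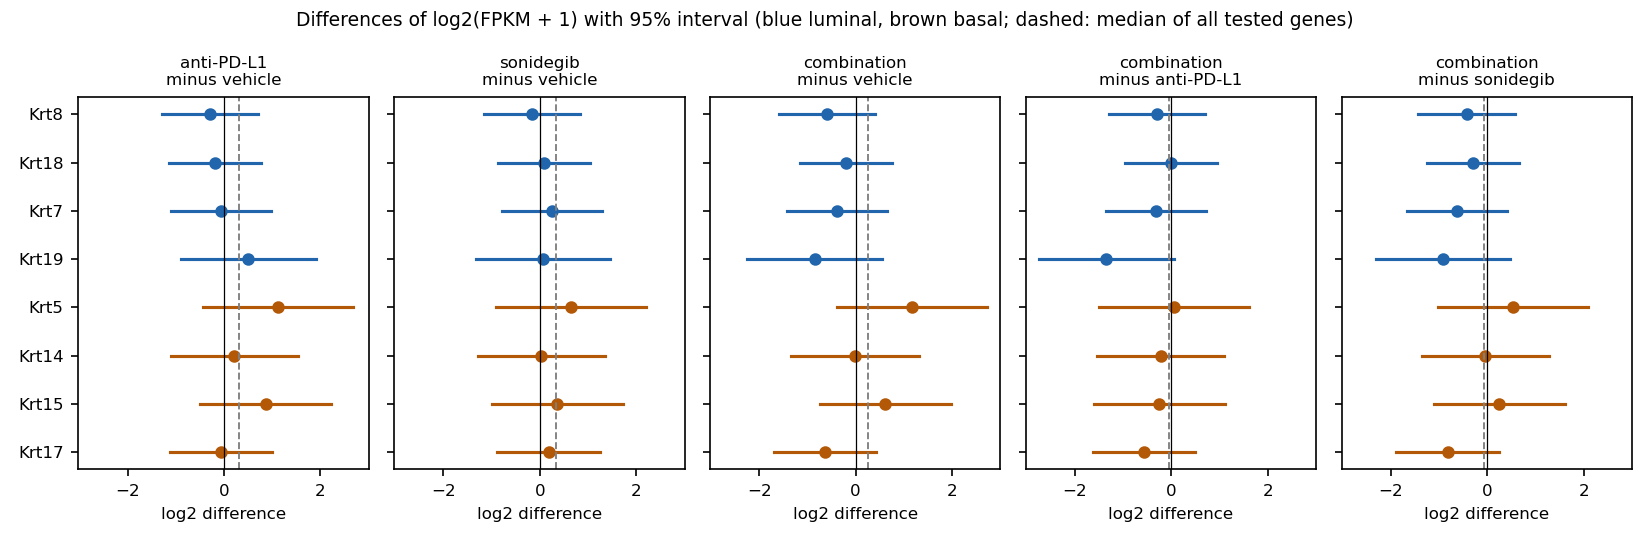
Differences of log2(FPKM + 1) for the 8 keratins in 5 comparisons, with points for the limma estimate, bars for its 95% interval, blue for luminal and brown for basal keratins, and a dashed line at the median of all tested genes. Every interval includes 0, among them that of Krt5 in combination minus vehicle (-0.38 to 2.73), and the signs of Krt18 and Krt14 in that comparison turn with the GC trend removed.

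Of the other 7 keratins, the one that Krt17 followed most closely was Krt19. Pearson's r between Krt17 and Krt19 was 0.870 over the 16 tumours (permutation p = 3e-05, adjusted p = 0.00042 over 28 pairs) and Spearman's rho 0.841 (permutation p = 9e-05, adjusted p = 0.00126). Without the 2 tumours farthest from the median of Krt19 r was 0.804, and over deviations from group means it was 0.891. It was 0.827 without anti-PD-L1 replicate 4, where Krt19 and Krt8 had an r of 0.830. Krt17 and Krt14 had an r of 0.643 (permutation p = 0.00702, adjusted p = 0.0283) and a rho of 0.618 (permutation p = 0.0124, adjusted p = 0.0347). Their r was 0.460 without the 2 tumours farthest from the median of Krt14. With the luminal Krt8, Krt17 also had an r of 0.643 (permutation p = 0.00809, adjusted p = 0.0283), and r was 0.586 with Krt7 and 0.519 with Krt18. Krt17 and Krt5 had an r of 0.319 (permutation p = 0.232, adjusted p = 0.325) and a rho of 0.168 (permutation p = 0.532, adjusted p = 0.677). The difference between these correlations was not tested, nor was the part of GC in any correlation of the keratins.

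The basal partners Krt5 and Krt14 had an r of 0.610 (permutation p = 0.0124, adjusted p = 0.0347) and a rho of 0.429 (permutation p = 0.0981, adjusted p = 0.172). Their r was 0.540 without the 2 tumours farthest from the median of Krt5 and 0.368 without anti-PD-L1 replicate 4. Krt14 had a higher r with the luminal Krt19, at 0.714 (permutation p = 0.002, adjusted p = 0.0129). Its rho with Krt19 was 0.779 (permutation p = 0.00064, adjusted p = 0.00358), and r was 0.613 without anti-PD-L1 replicate 4. With Krt7, Krt8 and Krt18 the r of Krt14 was 0.428 to 0.459. Krt5 and Krt15 had an r of 0.690 (permutation p = 0.0217, adjusted p = 0.0467) and a rho of 0.368 (permutation p = 0.163, adjusted p = 0.268). This relation rests on anti-PD-L1 replicate 4: r was 0.098 without that tumour, and 0.153 without the 2 tumours farthest from the median of Krt5. Krt5 showed no relation to Krt8 (r = -0.05, permutation p = 0.848, adjusted p = 0.848; rho = -0.06, permutation p = 0.83, adjusted p = 0.861).

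Anti-PD-L1 replicate 4 stood apart by its basal keratins and by the luminal Krt19. The basal keratins made up 11.7% of the summed FPKM of the 8 keratins in that tumour and 1.05% to 4.31% in the other 15. The basal share was 1.36% to 3.63% with vehicle, 1.93% to 2.97% with sonidegib and 2.04% to 4.31% with the combination. In anti-PD-L1 replicate 4, Krt8 and Krt18, at 321 and 329.9 FPKM, lay within the range of its group. All 4 basal keratins were at their highest of the 16 tumours there. So was Krt19, at 134 FPKM or 40.7% of Krt18. Trp63, the transcription factor of basal epithelial cells, was at 8.93 FPKM there and at 0.636 to 2.98 in the other 15 tumours. The list of 16 basal and myoepithelial genes, which holds Trp63, summed to 182 FPKM there and to 126 to 233 in the other 15. Of 16 listed genes of cornified skin and hair follicle 14 were below 1 FPKM in it as in all others. In bulk tumour RNA, more cells of a type and more RNA per cell cannot be told apart.

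**Figure D4:**
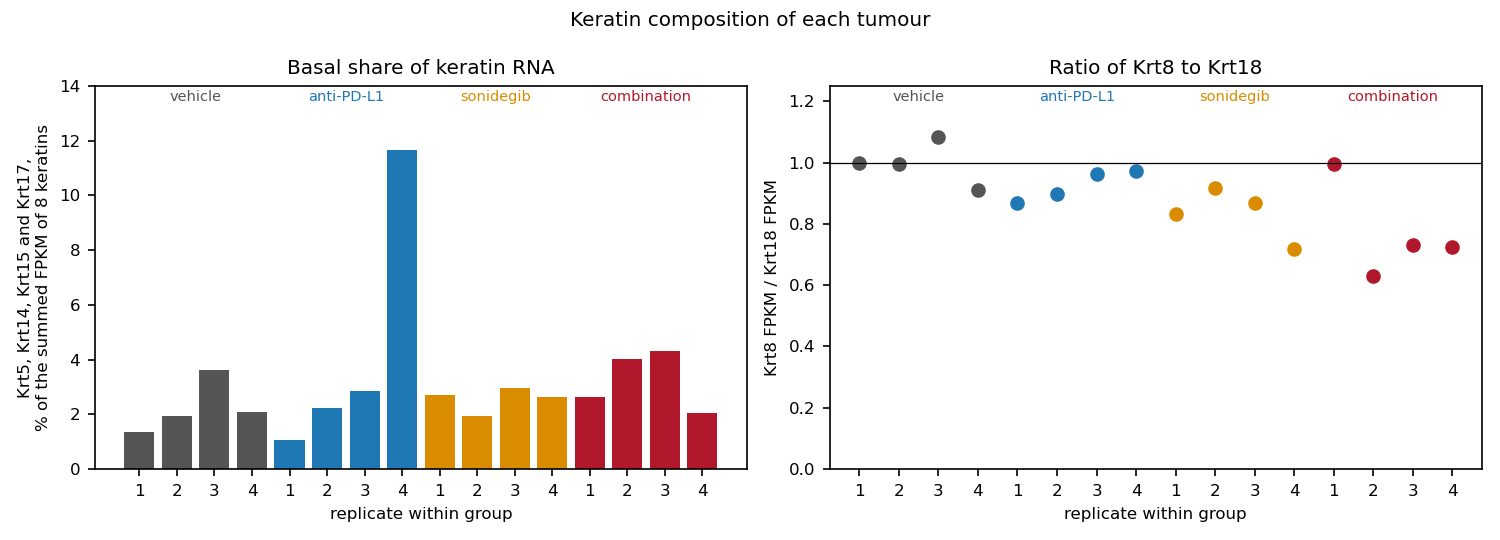
Basal keratins as a percentage of the summed FPKM of the 8 keratins (bars, left) and the ratio of Krt8 to Krt18 (points, right) for each tumour, coloured by group. The basal share is 11.7% in anti-PD-L1 replicate 4 and at most 4.31% elsewhere, and the ratio is 0.632 to 0.732 in combination replicates 2 to 4.

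By likeness of pattern over the 16 libraries, the genes nearest to Krt8 were Csrp1 (r = 0.962), Sec61a1 (r = 0.957) and Krt8-ps (r = 0.955). Krt18 was most like Jund (r = 0.957), Cldn3 (r = 0.931), a tight junction claudin, and Sec61a1 (r = 0.929). For Krt19 they were Rcc1 (r = 0.904), Tmem43 (r = 0.883) and Hmces (r = 0.873), and for Krt7 Myl12a (r = 0.915), Anxa5 (r = 0.898) and Bcl2l12 (r = 0.892). Krt17 was nearest to Actr1a (r = 0.910), Samd1 (r = 0.885) and Phb2 (r = 0.879). These genes were picked as the highest of all tested genes, so the values are a description.
For Krt15, Krt5 and Krt14 the nearest genes are given with r over all 16 tumours and then without anti-PD-L1 replicate 4. Without it r was lower for 8 of these 9 genes, the exception being Gpsm3. Krt15 was nearest to Trp63 (0.888 and 0.503), Cel (0.866 and 0.368) and Mir205hg (0.820 and 0.527). Krt5 was nearest to Ggt5 (0.886 and 0.743), Trim29 (0.885 and 0.741) and the Notch ligand gene Jag2 (0.871 and 0.721). Krt14 was nearest to Fam83a (0.863 and 0.801), Gpsm3 (0.810 and 0.910) and Anxa8 (0.753 and 0.710).

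Of the 47 keratin rows outside the 8, 4 were tested and 41 were below 1 FPKM in all 16 libraries. Krt23, a type I keratin, was at 1.97, 2.99, 1.14 and 2.94 FPKM with vehicle, 16.7, 3.73, 5.11 and 15.7 with sonidegib, and 1.91, 6.94, 10.9 and 9.25 with the combination. With anti-PD-L1 it was at 1.05 to 3.15 FPKM. All sonidegib tumours were above all vehicle and all anti-PD-L1 tumours, and combination replicate 1 again lay with vehicle. The difference of sonidegib from vehicle was 1.60 (SE 0.46, limma adjusted p = 0.127) and that of the combination 1.20 (SE 0.46, limma adjusted p = 0.0809). Krt79, a type II keratin, was at 1.01 to 2.78 FPKM with vehicle, 3.08 to 8.55 with sonidegib and 3.51 to 6.57 with the combination, so neither group overlapped vehicle. Its differences were 1.18 (SE 0.44, limma adjusted p = 0.135) and 1.17 (SE 0.44, limma adjusted p = 0.078). With anti-PD-L1 it was at 12.7 FPKM in replicate 4 and 1.47 to 2.01 in the others. Of all tested genes 6.27% were free of overlap for sonidegib against vehicle and 4.39% for the combination against vehicle. The median differences of all genes there were 0.33 and 0.26. For sonidegib against anti-PD-L1 2.75% of all genes were free of overlap. Krt16, a stress keratin, was at 0.849 ± 0.758 FPKM (SD, n = 4) with vehicle and 0.424 ± 0.675 with the combination (adjusted p = 0.383 by limma).

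Desmosomes and hemidesmosomes anchor keratin filaments to the cell membrane. Of 17 listed genes of these structures 13 were tested, and 0 were called by limma between the combination and vehicle, with a median of -0.19 beside 0.26 for all genes. The 2 with the lowest p were Jup, which encodes plakoglobin, and Plec, which encodes the linker plectin. Jup was at 90.2, 94.5, 51.9 and 70.7 FPKM with vehicle and 75.4, 26.8, 29.6 and 31.8 with the combination (difference -0.99, SE 0.32, limma adjusted p = 0.0518). Plec averaged 31.0 ± 13.1 and 15.3 ± 4.54 FPKM (SD, n = 4; difference -0.91, SE 0.32, limma adjusted p = 0.0613). As with Krt8, Krt17 and Krt19, combination replicate 1 was the highest of its group for Jup. Among 7 tested genes of other intermediate filaments, of 10 listed, 1 fell, Nes, which encodes nestin (-1.53, SE 0.44, limma adjusted p = 0.039), and 0 rose. In the list of basal and myoepithelial cells, with 13 of 16 genes tested, 2 rose and 0 fell. In this comparison 10.3% of all genes were called higher and 0.953% lower. The 2 listed genes that rose were the myosin light chain gene Myl9 (0.95, SE 0.26, limma adjusted p = 0.0374) and the Wnt pathway receptor gene Lgr5 (0.92, SE 0.29, limma adjusted p = 0.0467). Lgr5 was at 0.351, 1.87, 1.92 and 2.64 FPKM with the combination and 0.119, 1.43, 0.0684 and 0.121 with vehicle. It was below 1 FPKM in all other tumours, so it passed the filter mainly through the combination, where it is high.

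Some markers of other cells differed between the combination and vehicle, where 0 of 8 keratins were called. Of all tested genes 11.3% were called in that comparison, 10.3% higher and 0.953% lower. Of 10 tested fibroblast genes 5 rose against vehicle, among them Dcn (3.15, SE 0.55, limma adjusted p = 0.0274), and the summed level of the list was 133 to 183 FPKM with vehicle and 184 to 506 with the combination. Combination replicate 1, the tumour with the high Krt8 and Krt19, had a sum of 184, and replicates 2 to 4 had 347 to 506. Of 12 immune genes 7 were tested and 4 rose. A gene can pass the filter through the group where it is high, so the tested members of such a list favour a difference. Their summed level was 28.8 to 49.2 FPKM with vehicle, and in the combination 32.9 for replicate 1 beside 59.8 to 65.1 for replicates 2 to 4. Of 8 endothelial genes 5 were tested and 0 were called (sum 7.75 to 13.55 FPKM with vehicle, 13.6 to 17.1 with the combination), and of 8 adipocyte genes 2 were tested and 1, Fabp4, rose (sum 2.27 to 7.70 and 7.44 to 56.1). Skeletal muscle genes summed to 0.718 to 624 FPKM over the 16 libraries, with 0 of 8 called. Of the 13 listed genes named or counted here and above as called in this comparison, 0 kept the call without vehicle replicate 1, 2 or 3 or without combination replicate 2 or 4, and 5 did without combination replicate 3. With the GC trend removed 7 did. The part of these cells in the keratin values was not tested. Epcam averaged 234 ± 141 FPKM (SD, n = 4) with vehicle and 283 ± 18.1 with the combination. Of 8 Hedgehog genes, the pathway that sonidegib blocks, 5 were below 1 FPKM in all libraries, and 0 of the 3 tested were called in that comparison, with Ptch1 at -0.30 (SE 0.23, limma adjusted p = 0.376).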

How the data were processed

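RNA from 16 tumours was sequenced. The labels' protocols give stranded libraries depleted of ribosomal RNA, while another label names polyadenylated RNA, a conflict that was not resolved. The authors deposited FPKM for 55146 genes, made per the submitters' processing notes with Cufflinks and TopHat on mm10 (GRCm38.p6), with the annotation and tool versions not given in the sources. Since FPKM is relative to the mapped total, very abundant transcripts can lower the rest. Whole counts were not recovered. Depth was estimated from the FPKM step of 1 fragment in 4959 single-transcript genes over 2 kb.

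Columns were matched to tumours by the S number in the descriptions. These numbers run through the groups in turn, so an effect of library order cannot be told apart from treatment. Genes reaching 1 FPKM in 4 or more libraries were tested as log2(FPKM + 1) without scaling, which understates changes near 1 FPKM. Limma 3.58.1 (R 4.3.3) fitted 1 mean per group over 16 libraries with an intensity trend and robust variances. Tests were two-sided, adjusted by Benjamini-Hochberg within each of 8 comparisons at 0.05. The script was tested on simulated data. Coordinates and GC content are from GENCODE M21 (GRCm38), which 54468 identifiers matched. Correlations used 100000 permutations. The alternatives were 2 scalings, a pseudocount of 0.1, no filter, a GC trend removed, a replicate block and each library left out. Leaving out vehicle replicate 3 with anti-PD-L1 replicate 4 was chosen after seeing the data. The 8 keratins and the gene lists were chosen with earlier results of these data known. The text names the 8 whatever their test, the other keratins tested, list members called between the combination and vehicle (at most 4 a list, otherwise the 2 with the lowest p, with examples in the text), and the 3 genes most like each keratin.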

Additional observations from a re-analysis of the deposited data

Results flagged for a closer look

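In groups of 4 tumours, the gap between an extreme value and its nearest neighbour was set against the range of the group and compared with Dixon's 95% critical value for 4 samples. Of 32 sets of values (8 keratins in 4 groups) 4 exceeded it, where chance flags about 1 in 20. Krt8 was at 607 FPKM in combination replicate 1, and the gap was 0.902 of the range. Krt14 was high at 22.8 FPKM in vehicle replicate 4 (0.922) and low at 4.41 FPKM in sonidegib replicate 1 (0.983). Krt15 was at 14.1 FPKM in anti-PD-L1 replicate 4 (0.941).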

How the results depend on the processing

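Limma called 0 of the 8 keratins in each of the 8 comparisons under quantile normalization, median-of-ratios scaling, a pseudocount of 0.1, no filter, the GC trend removed and without both vehicle replicate 3 and anti-PD-L1 replicate 4 (7 keratins tested there). Leaving out 1 library at a time gave 0 to 1 for the combination against vehicle (1, Krt19, without combination replicate 1) and 0 for the other comparisons. Correlations of the deviations of same-numbered tumours were -0.434 to 0.343. Differently numbered tumours were not compared, so these values cannot decide whether the replicate numbers pair the tumours. With the replicate number as a block 0 keratins were called in each comparison and 1177 genes over the whole table for the combination against vehicle. That count was 1703 as reported, 2634 after quantile normalization, 2876 after median-of-ratios scaling, 8 with no filter, 655 with the GC trend removed, 3 without both vehicle 3 and anti-PD-L1 4, and 3 to 4953 without single libraries. It was 10, 6, 3 and 4953 without vehicle replicates 1 to 4, and 4245, 8, 514 and 3 without combination replicates 1 to 4. Of the 56 differences of the keratins, 11 changed sign after quantile normalization and 11 after median-of-ratios scaling, 9 with the GC trend removed, 1 with the smaller pseudocount and 0 with no filter or the block. None of the 20 differences of single keratins followed here was past the threshold as reported. With the GC trend removed the combination minus vehicle difference was 0.16 for Krt18 and 0.39 for Krt14, and Krt8 was at 0.0117 for anti-PD-L1 and 0.0829 for sonidegib against vehicle. The Krt18 interaction, -0.11 as reported, was 0.0069 after quantile normalization, 0.34 after median-of-ratios scaling and 0.31 without both libraries. Leaving out single libraries gave ranges that include 0. For the combination against vehicle these were -0.72 to 0.22 for Krt7, -0.65 to 0.0846 for Krt18 and -0.31 to 0.32 for Krt14. They were -0.57 to 0.0878 for Krt8 with sonidegib against vehicle, -0.44 to 0.91 for Krt5 with the combination against anti-PD-L1, and -0.40 to 0.33 for the Krt18 interaction. The cause was not tested. Each group had 4 tumours, and standard errors were 0.45 to 0.72 for pairwise differences. The 95% intervals thus reach about 1 log2 unit or more to each side, so smaller differences were not detectable. These intervals are not adjusted for the number of genes tested, so larger differences could miss the threshold too. Krt5, at 1.18 for the combination against vehicle (SE 0.72, limma adjusted p = 0.269), was not under 0.05 before adjustment either (unadjusted p = 0.127 by limma).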
